A study of Mus musculus with 6 samples.

Results

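The genes described here are the receptors and ligands of fibroblast growth factor (FGF) signalling, chosen by name: Fgfr1, Fgfr2, Fgfr3, Fgfr4 and Fgfrl1 among the receptors, and Fgf2, Fgf7, Fgf9, Fgf10 and Fgf18 among the ligands. Of these 10 genes, 9 had a row among the 26187 genes of the tables and 7 reached the level at which genes were tested, a mean of at least 0.5 FPKM over all libraries (counts of sequenced fragments scaled to transcript length and to library size). Fgf10 is not analysed here. The cells were MC3T3-E1, a pre-osteoblast line from mouse calvaria, and both groups were kept for 2 days in osteoconductive (OC) medium with β-glycerophosphate and ascorbic acid. The PAKG group also received PAKG–8diol–PEG(S) MPs, small microparticles of a polyester of α-ketoglutarate, 1,8-octanediol and polyethylene glycol, at 30 μg/mL, whereas the OC group received no MPs. Poly(A) RNA was sequenced from 3 samples of each group. Cell experiments of the study used triplicate wells, but how the RNA samples relate to wells or to repeats is not said, so every p-value here reflects the variation among these samples alone, which may be technical. A single cell line and no other microparticle enter the comparison, which therefore asks how the RNA of these genes differed between PAKG and OC.

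FGF ligands are secreted proteins that bind receptor tyrosine kinases at the cell surface together with heparan sulfate chains, or with a Klotho co-receptor for the hormone-like ligands. The activated receptor phosphorylates the docking protein Frs2 and recruits phospholipase C gamma, and the signal passes through RAS and the ERK kinases to transcription factors of the ETS family and to feedback inhibitors such as the sprouty proteins and Dusp6. In the skeleton, Fgfr1 and Fgfr2 are known from osteoprogenitors and osteoblasts, activating changes in Fgfr2 cause premature fusion of skull sutures, and Fgfr3 restrains the growth of cartilage in the growth plate. Alternative splicing of Fgfr1, Fgfr2 and Fgfr3 gives IIIb and IIIc forms with different ligands. Each table lists 1 value per gene, so these forms were not told apart.

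Summed FPKM ran from 289675.9 to 325818.2 per library, and depth, inferred from the smallest values of short transcripts, from 32300000 to 42000000 fragments, so that 1 fragment on a transcript of 1 kb was worth 0.0238 to 0.031 FPKM. Replicate 2 of both groups stood apart from the other libraries on the second principal component (25.1% of the variance), while the first (43.9%) separated PAKG from OC. Markers of osteoblasts, the labelled lineage, were all present (8 of 8 listed, summing to 7037 to 7753 FPKM in PAKG and 4947 to 5956 FPKM in OC). Fibroblast and contractile markers summed to 1809 to 1920 FPKM in PAKG and 1301 to 1548 FPKM in OC. The sum of the macrophage markers was 16.0 to 17.57 FPKM in PAKG and 9.21 to 12.08 FPKM in OC, mostly from Lyz2, while the leukocyte marker Ptprc reached no more than 0.01 FPKM. Epithelial markers summed to at most 0.62 FPKM and endothelial markers to at most 0.03 FPKM. The part of these lists in the values of the FGF genes was not tested.

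Fgfr3 was the receptor gene with the largest fold difference between the groups. It was listed at 17.94, 21.12 and 18.44 FPKM in PAKG replicates 1 to 3 and at 4.86, 5.02 and 4.04 FPKM in OC replicates 1 to 3. The lowest PAKG value exceeded the highest OC value, and replicate 2 was the highest of each group. The mean rose from 4.64 ± 0.526 to 19.2 ± 1.71 FPKM (SD, n = 3), by 2.03 in log2 units on the log2(FPKM + 0.1) scale with a standard error (SE) of 0.11 and a 95% interval from 1.78 to 2.27 (adjusted p = 0.00013 with limma). Fgfr3 (ENSMUSG00000054252) encodes a receptor tyrosine kinase that responds to Fgf9 and Fgf18 among other ligands, and its 17 listed transcripts span chr5:33721674-33737068 on the plus strand of GRCm38. In bulk samples such as these, more cells of a type and more RNA per cell cannot be told apart.

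Fgfr3 was also the only one of the 7 tested genes that passed both thresholds of the comparison, namely an adjusted p below 0.05 together with a change of 2-fold or more. Over all 12590 tested genes 1.45% passed both (0.866% higher and 0.58% lower in PAKG). At the adjusted p alone 5 of the 7 were called, against 14.7% of all tested genes. Of the 5, Fgfr2, Fgfr3 and Fgfrl1 were higher in PAKG (5.97% of all tested genes were), and Fgfr1 and Fgf7 were lower (8.73%). The groups did not overlap for these 5 genes, nor for 33.4% of all tested genes. The median log2 fold change of the 7 was 0.87, beside -0.03 over all tested genes.

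**Figure D1:**
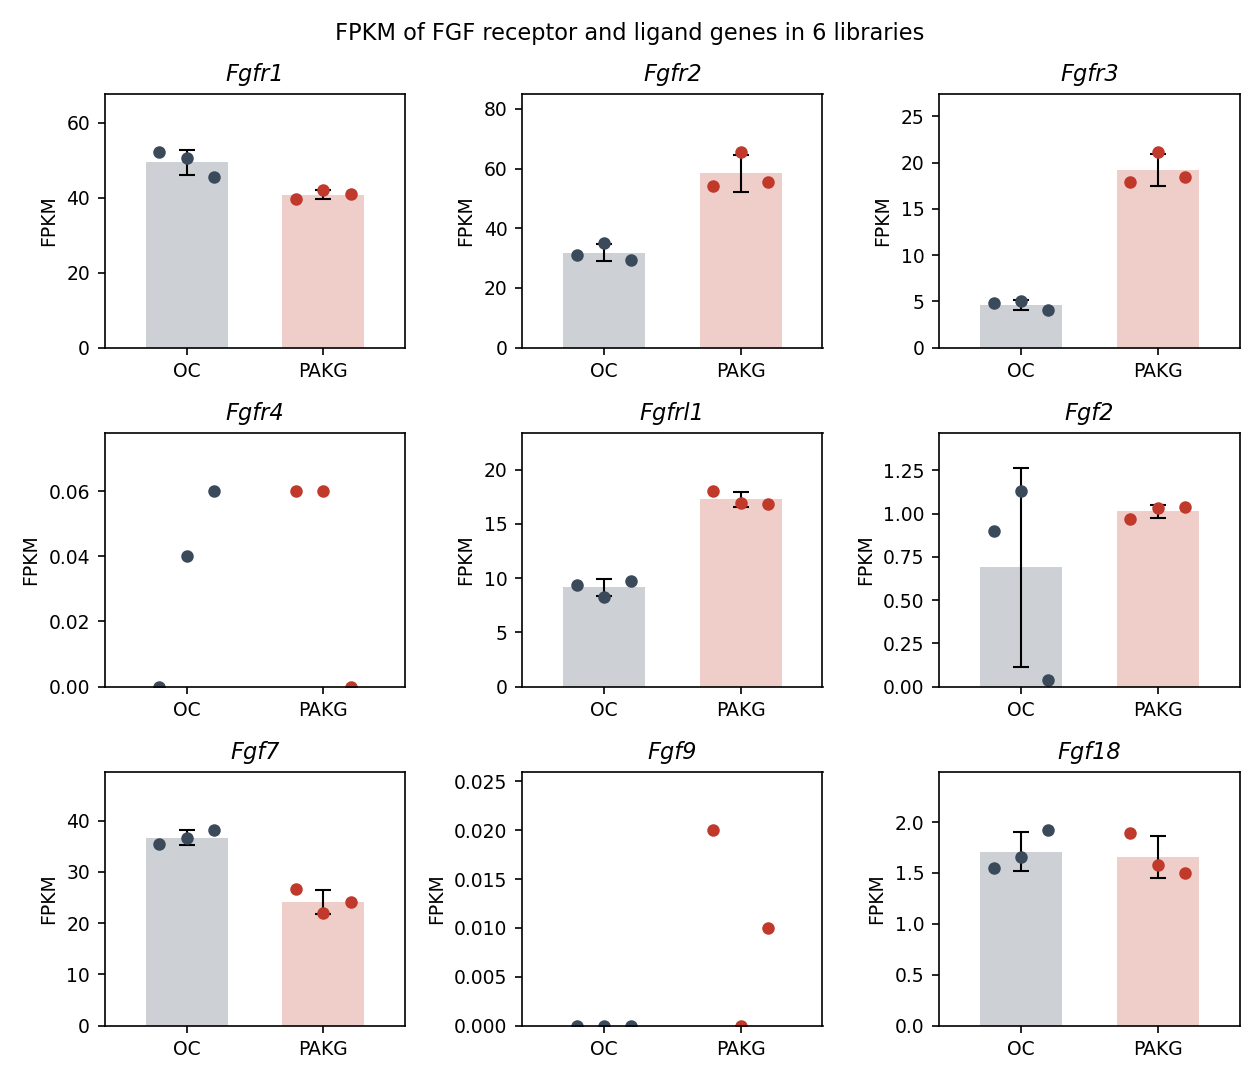
FPKM (vertical axes, each from 0 and on its own scale) of the 9 listed genes in the 3 OC and 3 PAKG libraries; points are libraries, and for the 7 tested genes bars are group means and whiskers the SD. Fgfr2, Fgfr3 and Fgfrl1 are higher in every PAKG library, Fgfr1 and Fgf7 lower, and the single low OC point of Fgf2 is replicate 3.

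Fgfr2 rose as well, by less than 2-fold. Its values were 54.06, 65.51 and 55.67 FPKM in PAKG and 30.91, 34.98 and 29.45 FPKM in OC. The groups were well apart, and replicate 2 was again the highest of each group. The mean went from 31.8 ± 2.87 to 58.4 ± 6.20 FPKM (SD, n = 3), with a log2 fold change of 0.87 (SE 0.10, 95% interval 0.64 to 1.11, adjusted p = 0.00164 with limma). Fgfr2 (ENSMUSG00000030849) encodes the receptor that binds Fgf7 and Fgf10 in its IIIb form and Fgf2, Fgf9 and Fgf18 in its IIIc form. Its 17 listed transcripts lie within chr7:130162451-130266263 on the minus strand.

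Fgfrl1, the receptor without a kinase, rose too. This gene (ENSMUSG00000008090, chr5:108694230-108706924, plus strand) encodes a receptor-like protein that binds FGF ligands and heparin but lacks the tyrosine kinase domain. It was listed at 18.02, 16.96 and 16.79 FPKM in PAKG and at 9.40, 8.30 and 9.75 FPKM in OC, again without overlap. The log2 fold change was 0.91 (SE 0.08, 95% interval 0.72 to 1.10, adjusted p = 0.000686 with limma), from 9.15 ± 0.757 to 17.3 ± 0.667 FPKM (SD, n = 3). Its interval reaches past a 2-fold rise, as does that of Fgfr2, so whether either change is above or below 2-fold was not resolved with 3 libraries a group.

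Fgfr1 had the smallest log2 fold change in size among the 5 genes called and went the other way. Fgfr1 (ENSMUSG00000031565, chr8:25518759-25575718, plus strand) encodes the receptor for Fgf2 and many other ligands in mesenchymal cells. Its values were 39.58, 41.96 and 40.99 FPKM in PAKG and 52.15, 50.52 and 45.60 FPKM in OC. All PAKG values lay below all OC values, although OC replicate 3 came close to them. The mean fell from 49.4 ± 3.41 to 40.8 ± 1.20 FPKM (SD, n = 3), a log2 fold change of -0.27 (SE 0.07, 95% interval -0.44 to -0.10, adjusted p = 0.0473 with limma). This call was marginal. It was lost without PAKG replicate 1 (adjusted p = 0.137 with limma), PAKG replicate 3 (0.163), OC replicate 1 (0.146), OC replicate 2 (0.115) or OC replicate 3 (0.0600), and with libraries scaled to a common total (log2 fold change -0.23, adjusted p = 0.162).

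Fgfr4, which in the mouse is known mainly from liver and developing muscle, was near the limit of what the libraries could show. The libraries listed it at 0.06, 0.06 and 0 FPKM in PAKG and at 0, 0.04 and 0.06 FPKM in OC, about the worth of 1 or a few fragments. The gene (ENSMUSG00000005320, chr13:55152640-55168759) was below the level for testing, and no difference was detectable at this depth.

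**Figure D2:**
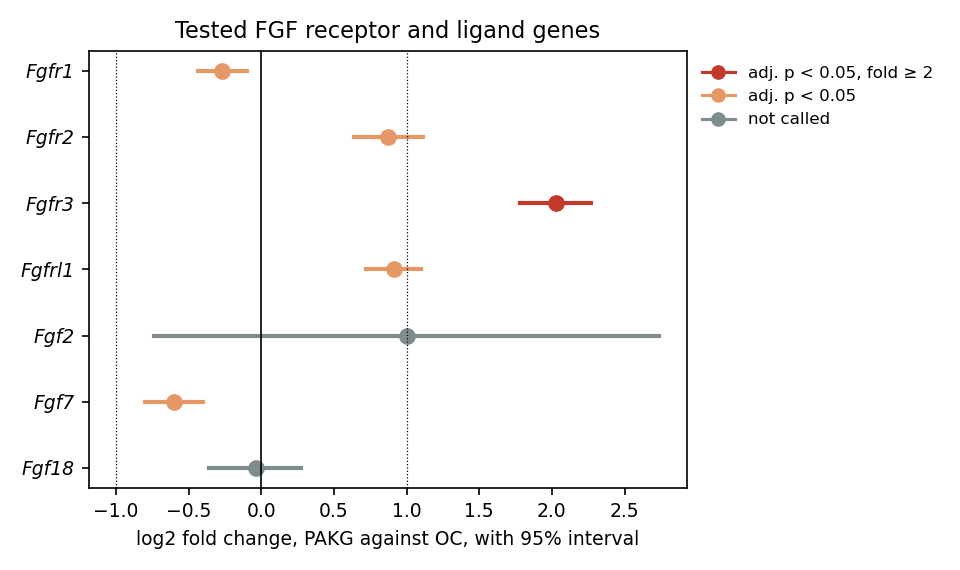
Log2 fold change of PAKG against OC (horizontal axis, log2(FPKM + 0.1) scale) for the 7 tested genes; lines are 95% intervals, colours show the thresholds passed, and dotted lines mark 2-fold. Fgfr3 at 2.03 lies wholly past 2-fold, the intervals of Fgfr2 and Fgfrl1 cross it, and that of Fgf2 runs from -0.74 to 2.74.

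The promoters of the receptor genes that rose are shown because these 3 genes were higher together, while their windows differ in base composition. Each sequence is the 300 bases of RefSeq on GRCm38.p6 from 250 bases before to 50 after a listed start, on the gene's own strand, and capitals mark the GC box GGGCGG or its reverse complement CCGCCC, overlapping matches included. The RefSeq promoters used here gave windows for 9 of the 10 genes, with none for Fgfr1, and Fgfr3 had 2. The first Fgfr3 window is chr5:33721474-33721773 (plus strand), the second chr5:33722056-33722355 (plus strand), that of Fgfrl1 chr5:108693979-108694278 (plus strand) and that of Fgfr2 chr7:130266759-130267058 (minus strand). The Fgfr2 start lies upstream of all 17 transcripts listed for that gene.
Fgfr3 first promoter: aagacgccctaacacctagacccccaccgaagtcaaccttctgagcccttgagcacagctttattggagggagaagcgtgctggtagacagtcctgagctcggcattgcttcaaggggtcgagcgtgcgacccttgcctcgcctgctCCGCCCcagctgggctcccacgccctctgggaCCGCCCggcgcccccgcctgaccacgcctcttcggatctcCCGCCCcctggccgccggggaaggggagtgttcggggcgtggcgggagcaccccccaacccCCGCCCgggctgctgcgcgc
Fgfr3 second promoter: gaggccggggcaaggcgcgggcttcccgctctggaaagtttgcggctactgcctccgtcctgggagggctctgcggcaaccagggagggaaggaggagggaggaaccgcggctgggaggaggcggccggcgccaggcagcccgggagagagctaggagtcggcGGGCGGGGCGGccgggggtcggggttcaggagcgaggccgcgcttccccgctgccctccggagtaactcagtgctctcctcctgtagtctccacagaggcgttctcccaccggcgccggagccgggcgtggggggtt
Fgfrl1 promoter: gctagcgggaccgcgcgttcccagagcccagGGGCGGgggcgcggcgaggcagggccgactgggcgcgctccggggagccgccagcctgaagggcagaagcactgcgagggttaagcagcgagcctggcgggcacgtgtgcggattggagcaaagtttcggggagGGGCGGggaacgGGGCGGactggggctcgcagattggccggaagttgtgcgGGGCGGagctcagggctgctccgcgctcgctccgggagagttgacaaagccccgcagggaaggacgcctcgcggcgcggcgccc
Fgfr2 promoter: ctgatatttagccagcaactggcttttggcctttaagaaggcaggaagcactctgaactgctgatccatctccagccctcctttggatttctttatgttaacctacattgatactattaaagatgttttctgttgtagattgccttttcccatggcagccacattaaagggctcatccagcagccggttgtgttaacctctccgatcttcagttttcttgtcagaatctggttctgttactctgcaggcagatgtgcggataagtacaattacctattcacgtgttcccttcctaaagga

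The first Fgfr3 window held 4 GC boxes and the second 2, at a GC content of 69.7% and 73.0%. Fgfrl1 likewise held 4. The Fgfr2 window held none and had a GC content of 43.7%, below the median of 52.7% over all promoters in the table. At least 1 GC box was found in 35.7% of the 32851 promoters of the same length. Fgfr4, listed at no more than 0.06 FPKM, held 4 as well, Fgf2 and Fgf18 held 1 each, and Fgf7 held none. An ETS core (CCGGAA, either strand) was found once in the Fgfrl1 window and once in that of Fgfr4, and in 14.9% of all promoters. No window of these genes held a TCF/LEF core (CTTTGA, 16.0% of all promoters) or a RUNX core (TGTGGT, 16.8%) on either strand. A match to such letters is a description of the window.

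The balance among Fgfr1, Fgfr2 and Fgfr3 differed between the PAKG and OC libraries, with no overlap in any measure. FPKM are per length, so each gene can be given as a share of the summed FPKM of the 3 receptors within a library, which does not depend on how the library was scaled. Fgfr1 made up 59.3%, 55.8% and 57.7% of the sum in OC replicates 1 to 3, and 35.5%, 32.6% and 35.6% in PAKG replicates 1 to 3. The most abundant receptor RNA was thus Fgfr1 in all 3 OC libraries and Fgfr2 in all 3 PAKG libraries. The share of Fgfr2 was 35.2%, 38.6% and 37.2% in OC and 48.4%, 50.9% and 48.4% in PAKG. Fgfr3 had the smallest share throughout and, in percentage points, also the least spread within a group. It made up 5.53%, 5.55% and 5.11% in OC and 16.1%, 16.4% and 16.0% in PAKG.

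**Figure D3:**
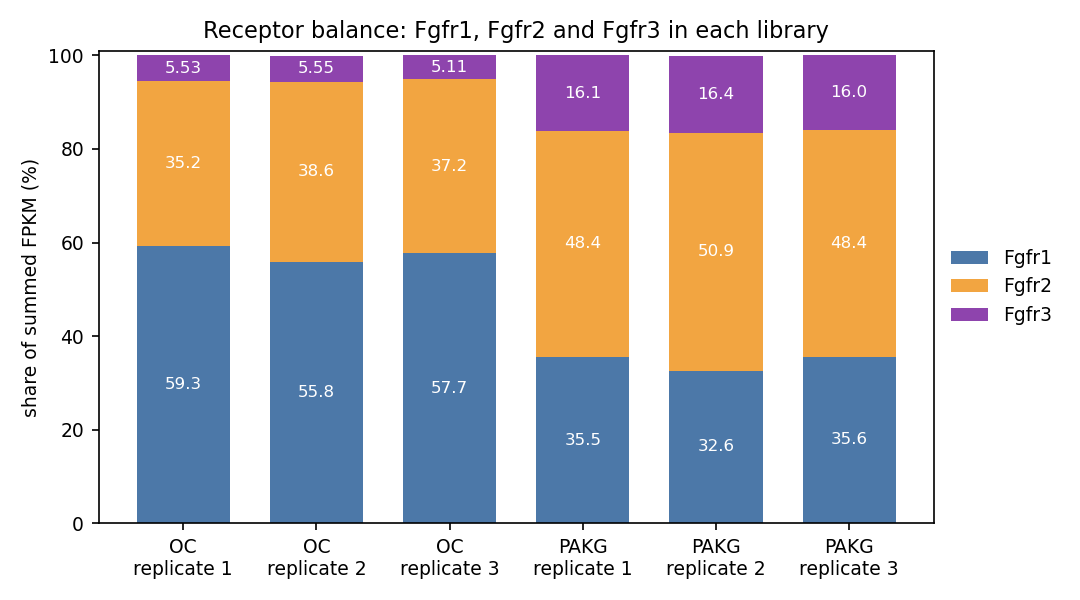
Share of Fgfr1, Fgfr2 and Fgfr3 in their summed FPKM (vertical axis, percent) for each OC and PAKG library, with the share printed in each segment. Fgfr1 takes 55.8% to 59.3% of the sum in OC and 32.6% to 35.6% in PAKG, and Fgfr3 goes from 5.11% to 5.55% up to 16.0% to 16.4%.

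In group means the Fgfr1 share was 57.6 ± 1.75% in OC and 34.6 ± 1.68% in PAKG (SD, n = 3), a difference of -23.0 percentage points. The Fgfr2 share differed by 12.2 points, from 37.0 ± 1.75% to 49.3 ± 1.47%. The Fgfr3 share differed by 10.8 points, from 5.39 ± 0.248% to 16.2 ± 0.218%. As ratios, Fgfr3 stood at 0.0937 of Fgfr1 in OC and 0.469 in PAKG, a log2 difference of 2.32. Fgfr2 stood at 0.644 of Fgfr1 in OC and 1.43 in PAKG, a log2 difference of 1.15, and so crossed from below Fgfr1 to above it. The ratio of Fgfr3 to Fgfr2 went from 0.146 to 0.328 (log2 difference 1.17). For all 6 measures the groups did not overlap, and each gave p = 0.1 in an exact 2-sided permutation test over libraries (adjusted p = 0.1), the smallest p that 3 against 3 libraries allow, so that this design could not pass 0.05. The 6 measures are not independent of each other. They restate the values of the 3 genes, whose groups already did not overlap (nor did those of 33.4% of all tested genes). The lower Fgfr1 share and the higher ratios to Fgfr1 follow from those values. The summed FPKM of the 3 receptors was 87.92, 90.52 and 79.09 in OC and 111.6, 128.6 and 115.1 in PAKG.

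Among the ligands, Fgf7 was the only one with a substantial level, and it fell. Fgf7 (ENSMUSG00000027208, chr2:126034658-126091185, plus strand) encodes keratinocyte growth factor, which mesenchymal cells secrete and which acts on the IIIb form of Fgfr2 in epithelia. It was listed at 26.58, 21.90 and 24.16 FPKM in PAKG and at 35.35, 36.54 and 38.13 FPKM in OC. No PAKG value reached the lowest OC value. The mean decreased from 36.7 ± 1.39 to 24.2 ± 2.34 FPKM (SD, n = 3), with a log2 fold change of -0.60 (SE 0.09, 95% interval -0.80 to -0.40, adjusted p = 0.00395 with limma). Esrp2, a splicing factor of epithelial cells that favours the IIIb forms, was listed at 0 to 0.03 FPKM, and Esrp1 is not analysed here.

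Fgf18, a ligand of Fgfr3 and the IIIc form of Fgfr2 known to act in osteogenesis and cartilage, was expressed at a low level in both groups. Its values were 1.89, 1.58 and 1.50 FPKM in PAKG and 1.55, 1.66 and 1.92 FPKM in OC, with full overlap. The log2 fold change was -0.04 with a 95% interval from -0.36 to 0.27 (adjusted p = 0.874 with limma), so a change of 2-fold in either direction lies outside the interval. Fgf18 is ENSMUSG00000057967 at chr11:33117430-33147400 on the minus strand.

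Fgf2, the ligand basic FGF (ENSMUSG00000037225, chr3:37348346-37410108, plus strand), was not resolved because of 1 library. It was listed at 0.97, 1.03 and 1.04 FPKM in PAKG and at 0.90, 1.13 and 0.04 FPKM in OC. Only OC replicate 3 was low, and the other 5 libraries overlapped. With all libraries the log2 fold change was 1.00 (SE 0.75, 95% interval -0.74 to 2.74, adjusted p = 0.431 with limma), and without OC replicate 3 it was 0.00 (adjusted p = 0.989). Fgf2 shares 640 exon bases with Nudt6, a gene on the opposite strand that is known as its antisense partner. Nudt6 was listed at 0.35, 0.43 and 0.76 FPKM in PAKG and at 0.69, 0.56 and 1.32 FPKM in OC, highest in the library where Fgf2 was lowest. The library kit keeps strand, but whether the counting used it is not given in the sources used here, so the split of reads between the 2 genes is uncertain. In the same library the adipocyte markers Adipoq and Fabp4 were listed at 0.36 and 0.58 FPKM, against at most 0.04 in the other 5 libraries. Plin1 and Lep of that list were at 0.06 and 0.20 FPKM there and at 0 elsewhere. The remaining marker, Cebpa, did not stand out there, at 2.21 FPKM against 2.09 and 1.43 FPKM in OC replicates 1 and 2 and 2.70 to 3.37 FPKM in PAKG. The part of such differences in the Fgf2 value was not tested.

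Fgf9, which signals strongly through Fgfr3 in the skeleton, was listed at 0.02, 0 and 0.01 FPKM in PAKG and at 0 in every OC library. The gene (ENSMUSG00000021974, chr14:58070547-58112720) was below the level for testing. Of the 13 other signalling ligands of the pathway lists, 4 had a row (Fgf1, Fgf17, Fgf21 and Fgf22), and none exceeded 0.09 FPKM in any library or was tested. The 4 intracellular FGF homologous factors, which are not secreted, were listed at no more than 0.36 FPKM.

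Ordered by mean level, the genes of the OC group ran Fgfr1 (49.4 FPKM), Fgf7 (36.7), Fgfr2 (31.8), Fgfrl1 (9.15), Fgfr3 (4.64), Fgf18 (1.71) and Fgf2 (0.69), with Fgfr4 and Fgf9 near 0. Only Fgf2 and Fgfr4 had values that overlapped with those of the next gene in this order. In PAKG the order was Fgfr2 (58.4 FPKM), Fgfr1 (40.8), Fgf7 (24.2), Fgfr3 (19.2), Fgfrl1 (17.3), Fgf18 (1.66) and Fgf2 (1.01). There Fgfr3 and Fgfrl1 were neighbours whose libraries overlapped, as did Fgfr4 and Fgf9. Fgfr2 thus moved from the third to the first place and Fgfr3 from the fifth to the fourth.

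The rest of the pathway was described from 7 lists of 92 genes, of which 78 had a row and 58 were tested. The lists were chosen with earlier results of these data known, so their counts are a description. Of the 58, 4 passed both thresholds and all 4 were lower in PAKG. At the adjusted p alone 14 did, 2 higher and 12 lower (14.7% of all tested genes passed), with a median log2 fold change of -0.07 over the 58. This count depended on the libraries and the fit. It was 28 with the replicate number as a block, 8 with libraries scaled to a common total, 15 without PAKG replicate 2, and between 5 (without OC replicate 3) and 9 (without OC replicate 1) without any one of the other libraries.

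The 4 genes that passed both thresholds were all in the list of ERK feedback and output genes, in which 15 of 20 were tested. Over all tested genes 0.58% were lower at both thresholds. At the adjusted p alone 8 of the 15 were lower and 0 higher, beside 8.73% lower and 5.97% higher over all tested genes. The median log2 fold change of the list was -0.38. Since this list too was chosen with earlier results known, the excess over all tested genes is not independent support. Etv4, an ETS transcription factor induced by FGF signalling in many tissues, was listed at 0.37, 0.48 and 0.50 FPKM in PAKG and at 3.15, 2.86 and 2.48 FPKM in OC. It fell by 2.42 on the log2 scale (SE 0.16, adjusted p = 0.000285 with limma), the largest change in these lists, and by 1.40 with a pseudocount of 1. Its relative Etv5 was listed at 1.49, 1.45 and 1.25 FPKM in PAKG and at 4.49, 5.13 and 3.96 FPKM in OC, a log2 fold change of -1.62 (SE 0.13, adjusted p = 0.000426 with limma).

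Dusp6, a phosphatase that removes the activating phosphates of ERK and is itself induced by ERK, followed the same direction. It was at 1.86, 1.69 and 1.81 FPKM in PAKG and at 4.20, 3.85 and 4.75 FPKM in OC, a log2 fold change of -1.21 (SE 0.11, adjusted p = 0.000657 with limma). With a pseudocount of 1 this was -0.92, short of 2-fold. Egr1, an immediate early transcription factor downstream of ERK, was at 2.97, 3.29 and 2.74 FPKM in PAKG and at 5.06, 5.37 and 6.16 FPKM in OC. Its log2 fold change was -0.86 (SE 0.11, adjusted p = 0.00232 with limma), short of 2-fold. For Etv4, Etv5, Dusp6 and Egr1 the PAKG and OC libraries were well apart.

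The feedback inhibitor Spry1 was low in both groups, at 0.18, 0.24 and 0.49 FPKM in PAKG and 0.82, 0.77 and 0.88 FPKM in OC. Its log2 fold change was -1.27 (SE 0.31, adjusted p = 0.0316 with limma), and -0.49 with a pseudocount of 1, short of 2-fold. The call was lost with no filter (adjusted p = 0.0768), and the adjusted p ranged from 0.0544 to 0.118 without PAKG replicate 1, PAKG replicate 2 or any one OC library. Spred2, a sprouty-related inhibitor of RAS signalling, was at 4.15, 6.62 and 4.72 FPKM in PAKG and 7.41, 9.03 and 7.97 FPKM in OC. The difference was -0.67 (SE 0.17, adjusted p = 0.0375 with limma), a call that was lost without any one library other than PAKG replicate 2 (adjusted p 0.0722 to 0.125). By contrast Spry2, another sprouty gene, was at 2.06 to 2.55 FPKM in PAKG and 2.26 to 2.63 FPKM in OC, and did not pass the test.

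**Figure D4:**
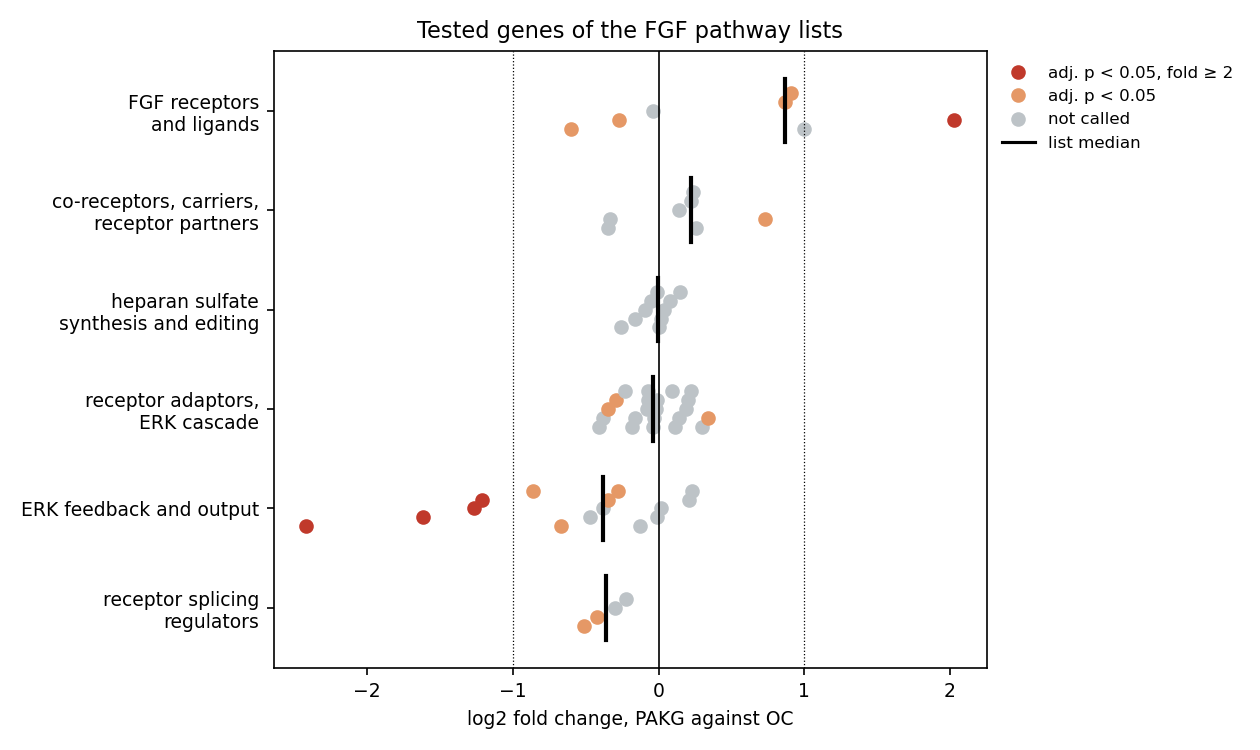
Log2 fold change of PAKG against OC (horizontal axis, log2(FPKM + 0.1) scale) for the tested FGF receptor and ligand genes and the tested genes of 5 pathway lists; each point is a gene, colours show the thresholds passed, black bars are list medians and points are spread vertically for legibility. The 4 red points left of 0 are Etv4, Etv5, Spry1 and Dusp6, and the red point on the right is Fgfr3 at 2.03.

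The genes of the cascade upstream gave few calls. All 22 adaptor and ERK cascade genes were tested, 0 passed both thresholds, and their median log2 fold change was -0.03, that of all genes. Nras, a RAS GTPase, was at 14.78, 12.83 and 13.81 FPKM in PAKG and at 16.81, 16.89 and 17.07 FPKM in OC, a log2 difference of -0.29 (adjusted p = 0.0359 with limma). That call was lost without any one library other than PAKG replicate 1 (adjusted p 0.0511 to 0.135). Plcg1, the phospholipase that binds the activated receptors, was the only one of the list called higher, by 0.34 on the log2 scale (adjusted p = 0.0417 with limma). It too was lost, without any one library other than OC replicate 2 (adjusted p 0.0674 to 0.154).

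Among the genes for co-receptors and receptor partners, 7 of 11 were tested and 1 was called at the adjusted p (14.7% of all tested genes were). Flrt3, a membrane protein shown in Xenopus to bind FGF receptors, was at 4.23, 5.54 and 4.69 FPKM in PAKG and at 2.71, 3.06 and 2.76 FPKM in OC. It rose by 0.73 on the log2 scale (SE 0.12, adjusted p = 0.00636 with limma). Klb, the co-receptor of hormone-like FGFs, was listed at no more than 0.04 FPKM. Of the 16 genes for synthesis and editing of heparan sulfate, 10 were tested and 0 were called, beside the same 14.7%, with a median of -0.01. The smallest adjusted p in that list belonged to Ext2, a polymerase of the chain (0.15, adjusted p = 0.256 with limma), and Glce, an epimerase acting on it (-0.26, adjusted p = 0.290 with limma). With the replicate number as a block Glce was called (adjusted p = 0.0211). Among the receptor partners the block also called Flrt2 and Ncam1 lower and Cdh2 and Lgals3 higher (adjusted p 0.0160 to 0.0186 with limma). With that block 1554 of all 12590 tested genes were higher and 2157 lower at the adjusted p.

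Of 6 regulators of receptor splicing, 4 were tested, and 2 of them were lower at the adjusted p (8.73% of all tested genes were). Ptbp1, which represses the IIIb exon of Fgfr2 in rat cell lines, was at 88.85, 103.51 and 94.81 FPKM in PAKG and at 130.49, 126.23 and 126.52 FPKM in OC (log2 fold change -0.42, SE 0.08, adjusted p = 0.0112 with limma). Ptbp3, of the same family, was at 11.74, 14.29 and 12.31 FPKM in PAKG and at 16.66, 19.93 and 18.12 FPKM in OC (log2 fold change -0.51, SE 0.10, adjusted p = 0.0155 with limma). The groups did not overlap for either gene. Ptbp1 was no longer called on leaving out PAKG replicate 3 (adjusted p = 0.0636) or OC replicate 3 (0.0508), nor was Ptbp3 on leaving out PAKG replicate 1 (0.0535), PAKG replicate 3 (0.0710) or OC replicate 3 (0.0657).

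The genes whose values followed Fgfr3 most closely over the 6 libraries were found by the root mean square difference of mean-centred log2 values among 9150 genes. They were Smpd3 (0.105), a sphingomyelinase needed for mineralisation of bone and cartilage, Col2a1 (0.113), the type II collagen of cartilage, C1qtnf3 (0.119), Aoc3 (0.120) and Fgd3 (0.143). Smpd3 went from 6.37 to 25.9 FPKM in mean and Col2a1 from 11.1 to 46.2 FPKM. The nearest to Fgfr2 were Plxnd1, Dysf and Als2cl (0.0396 to 0.0554), and the nearest to Fgfrl1 were Csad, Plcd1 and Tmie (0.0485 to 0.0642). The measure includes the size of the change, so the Fgfr3 list could hold no gene of the Fgfr2 or Fgfrl1 list. These lists are a description only.

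Since Fgfr3 is also known from chondrocytes, the markers of that cell type are given beside it. Of 8 chondrocyte markers 6 had a row, and their summed level was 18.43 to 19.86 FPKM in PAKG and 9.28 to 10.22 FPKM in OC. Most of the sum was Sox9, which osteoprogenitors also express. The 3 tested chondrocyte markers, Sox9, Comp and Hapln1, were all higher in PAKG at the adjusted p (5.97% of all tested genes were), with log2 fold changes of 0.80, 0.96 and 1.51. Below the level for testing, Col9a2 was at 0.21, 0.24 and 0.11 FPKM in PAKG and at 0.02, 0.02 and 0 FPKM in OC, while Col10a1 and Matn1 stayed under 0.1 FPKM in every library. Acan and Col9a1 are not analysed here, and Col2a1, whose means are given above among the genes nearest to Fgfr3, is not on the list. The summed osteoblast markers were also higher in every PAKG library, but most of that sum was Col1a1 and Col1a2. At the adjusted p 6 of the 8 were higher (5.97% of all tested genes were) and 1 was lower (8.73%). Bglap, Alpl and Sp7 passed both thresholds (0.866% of all tested genes were higher at both), with log2 fold changes of 4.36, 1.61 and 1.35. The lower marker was Spp1 (log2 fold change -0.50, adjusted p = 0.0186 with limma). The part of either cell type's markers in the Fgfr3, Fgfr2 and Fgfrl1 values was not tested.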

How the data were processed

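RNA-Seq values of 3 PAKG and 3 OC libraries were analysed, with groups and replicate numbers taken from the sample labels. For each library the authors deposited a table of FPKM, rounded to 2 decimals. The submitters' processing notes list HISAT2, StringTie, cutadapt, FastQC and DESeq2, with GRCm38 as the build, and versions were not given in the sources used here. No count test was used on the deposited FPKM, since they are not counts, and depth could only be estimated. No pair of libraries held more than 1.06% identical values among tested genes.

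Values were transformed to log2(FPKM + 0.1), and genes averaging 0.5 FPKM or more (12590 genes) entered a comparison by limma 3.58.1 in R 4.3.3 (eBayes with trend, 2-sided, Benjamini-Hochberg over all tested genes). Called genes have an adjusted p under 0.05, with or without a fold change of at least 2. Receptor shares and ratios were compared by exact permutation over libraries. Transcript coordinates came from GENCODE M21 on GRCm38, in which 99.76% of gene IDs were found, and promoters from RefSeq. Of these steps, the limma fit was tested on simulated data, with independent noise and no pairing of libraries. Python 3.11.15, numpy 2.4.6, pandas 2.3.3 and matplotlib 3.10.9 served for tables and figures.

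The genes and lists were chosen with earlier results of these data known. Named genes are the 10 receptors and ligands, in each pathway list up to 6 genes with the smallest adjusted p under 0.05 (or the 2 smallest where none passed), and the nearest genes by pattern. A gene that the rule selects is left out of the text. Genes named for a level near 0, and Spry2, Nudt6, Flrt2, Ncam1, Cdh2, Lgals3 and the markers, were named after their values were seen. Marker lists covered osteoblast, chondrocyte, fibroblast, adipocyte, macrophage, endothelial and epithelial genes.

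Both groups carry replicate numbers 1 to 3. Deviations from the group means correlated at 0.192 to 0.430 between libraries of the same number in all 3 pairs, and at -0.312 to 0.138 between others. Libraries of the same number may therefore be paired, but neither the labels nor the paper explain what it marks. The main limma fit and the main permutation test ignored this pairing. A block for the replicate number was fitted only as an alternative. Other alternatives were pseudocounts of 1 and 0.01, a filter at 1 FPKM or none, scaling to a common total (TPM) or by median ratios, no mean-variance trend, no fold threshold and each library left out. Leaving out both libraries numbered 2 was chosen after seeing the data.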

Additional observations from a re-analysis of the deposited data

How the results depend on the processing

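Fgfr3 passed both thresholds under every alternative, with a log2 fold change between 1.84 (pseudocount 1) and 2.08 (without OC replicate 2). Of the 7 tested receptor and ligand genes, 1 passed both thresholds under every alternative that kept the fold threshold (1 to 1 when a library was left out, 1 with the replicate block), and 5 passed with no fold threshold. The adjusted p alone called 4 or 5 of them, since Fgfr1 was also lost with no filter (adjusted p = 0.0779), median-ratio scaling (0.0692), no mean-variance trend (0.0773) and both libraries numbered 2 left out (0.0567), whereas the block gave 0.0215. For the pathway lists, 4 genes passed both thresholds, 2 with a pseudocount of 1, 4 with the replicate block, and 3 to 4 when a library was left out. At the adjusted p alone 14 passed, 8 with no filter, 9 with no mean-variance trend (Nras and Plcg1 were lost under both, and with a common total) and 20 with both libraries numbered 2 left out. The Fgf18 log2 fold change of -0.04 ranged from -0.14 to 0.04 when a library was left out, and was 0.02 without PAKG replicate 3 and 0.04 without OC replicate 3. All 6 receptor balance values kept their direction; the Fgfr1 share differed by -23.9 to -22.1 points when a library was left out, and with the replicate block (sign flips within pairs, smallest possible p 0.25) p was 0.25 in each. Scaling to a common total changed the split of all called genes at the adjusted p from 751 higher and 1099 lower to 874 and 764, and the block gave 1554 and 2157. Among the receptor, ligand and pathway genes named by the rule the block changed the call of Glce only. Most of the pathway genes were named because they were already called, so this stability was partly set by the choice. Over the pathway lists the block gave 28 calls at the adjusted p in place of 14. The marker Col1a2 was also called with the block (adjusted p = 0.00690 with limma, against 0.0531 without it). Values near the pseudocount (Fgfr4, Fgf9, Spry1) are limited by depth and by rounding to 2 decimals.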

Other observations

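Among genes of the pathway lists, 5 of the 20 listed below the level for testing had groups that did not overlap. The share was 33.4% among all tested genes, which lie above that level, and was not taken over all genes below it. Spry4, a sprouty inhibitor, was listed at 0.01, 0 and 0.03 FPKM in PAKG and at 0.05, 0.14 and 0.13 FPKM in OC. Etv1, a relative of Etv4 and Etv5, was at 0.03, 0.02 and 0.01 FPKM in PAKG and at 0.05, 0.12 and 0.08 FPKM in OC. Fosl1, an AP-1 subunit induced by ERK, was at 0.27, 0.13 and 0.28 FPKM in PAKG and at 0.53, 0.44 and 0.60 FPKM in OC. Fgf11, an intracellular FGF homologous factor that is not secreted, was at 0.22, 0.16 and 0.24 FPKM in PAKG and at 0.31, 0.36 and 0.29 FPKM in OC. Without a filter, limma gave adjusted p-values of 0.101 for Spry4, 0.146 for Etv1, 0.123 for Fosl1 and 0.365 for Fgf11. The fifth, Ndst3, was listed at 0 in every PAKG library and at 0.02, 0.03 and 0.04 FPKM in OC. They were picked after their values were seen.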
